A study of Mus musculus with 12 samples.

Results

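Proteasome genes were followed in B16 mouse melanoma cells through total RNA and through ribosome-protected fragments (footprints, the pieces of mRNA that survive nuclease because a ribosome covers them). They were taken as every row of the count table whose symbol is Psma, Psmb, Psmc, Psmd, Psme, Psmf or Psmg followed by a number, without the immunoproteasome subunits Psmb8, Psmb9 and Psmb10. This gave 47 of 24421 genes. They comprise the 14 genes of the core particle, 17 of the regulatory particle, 5 activators, 7 assembly chaperones, 1 inhibitor (Psmf1), 2 core subunits restricted to testis and thymus (Psma8 and Psmb11) and Psmc3ip, a meiotic recombination factor that shares only the letters of its symbol. The cells were grown in DMEM with serum and had been transduced with lentivirus, carrying either a non-relevant shRNA (shCTL, here shControl) or an shRNA specific for Elp3 (sh309, here shElp3). The Elp3 protein is the enzyme of the Elongator complex, which modifies the wobble uridine of some tRNAs. With 3 cultures per shRNA, lettered A, B and C, and both fractions from each, there were 12 libraries in 4 groups of 3. Only 1 shRNA was directed at Elp3, so effects of its loss and of that shRNA itself cannot be told apart. The labels do not say whether the cultures came from separate transductions, so p-values measure only the spread between these samples.

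The proteasome degrades proteins tagged with ubiquitin. Its core particle is a barrel of α and β rings, in which the β subunits Psmb5, Psmb6 and Psmb7 cut the protein chain. The regulatory particle caps the barrel: a ring of ATPases (Psmc genes) unfolds the substrate and opens the α ring, and non-ATPase subunits (Psmd genes) bind ubiquitin, remove it and hold the cap together. Subunits are needed in fixed proportion, and the transcription factor Nfe2l1 is known to raise the subunit genes together, through antioxidant response elements, when proteasome capacity falls short.

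The promoters were searched for the core of that element because the subunit genes are known as its targets. RefSeq promoters (build GRCm38.p6, the 250 bases before the start site) were at hand for 39 of the 47 genes. The motif TGACNNNGC, on either strand, was present in 2 of 11 core and 2 of 14 regulatory promoters, or 16.0% of the 25 together, and in 12% of all 17492 protein-coding promoters. Of the 39 genes 5 held the motif (12.8%), the assembly chaperone Psmd9 among them. The matches in the core and regulatory genes are shown with the motif in capitals and up to 10 bases on each side. That of Uchl5, a deubiquitinase of the regulatory particle described further on, was added because Uchl5 was called. No count was made over the other genes that work with the proteasome.
Psmb5 (on the minus strand, 47 bases before the start site, promoter chr14:54617996-54618245): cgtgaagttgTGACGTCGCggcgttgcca
Psmb6 (plus strand, 9 bases before, promoter chr11:70525107-70525356): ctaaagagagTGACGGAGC
Psmc6 (plus strand, 227 bases before, motif on the opposite strand, promoter chr14:45329574-45329823): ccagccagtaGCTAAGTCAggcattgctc
Psmd12 (plus strand, 247 bases before, motif on the opposite strand, promoter chr11:107479278-107479527): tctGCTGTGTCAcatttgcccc
Uchl5 (plus strand, 34 bases before, promoter chr1:143777028-143777277): gcgcggcaggTGACGGCGCccggaggctg
The CCAAT box was present in 6 of 11 core and 4 of 14 regulatory promoters, 40.0% of the 25 and 39.5% of all. Psme4 and Psmg4, which changed in footprints, held neither motif in this window. The start site used for the Psmb6 promoter lies inside the RefSeq span of that gene (chr11:70525324-70527858). Its match therefore falls within the gene span and not before it. A match is a run of letters and not a measured binding site.

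Elp3 checked the labels. Its total RNA level was 93.9, 72.1 and 70.0 CPM (reads of a gene scaled to a common library size by TMM) in shControl A, B and C and 41.3, 35.3 and 35.4 CPM in shElp3. The groups did not overlap, although the log2 fold change of -1.08 with an SE of 0.22 (edgeR adjusted p = 0.0831) missed the threshold of 0.05, which it passed with the letter as a block (adjusted p = 0.000977) and in footprints (-0.93 (edgeR adjusted p = 0.0249)). RNA libraries held 7914369 to 16527864 counts and footprint libraries 7619269 to 10998570. All 8 melanocytic markers were detected in all 4 groups, with a summed level of 8939 to 11912 CPM in shControl RNA and 5954 to 7474 CPM in shElp3 RNA. The 8 leukocyte markers together reached 6.23 to 22.5 CPM in RNA and 13.7 to 77.2 CPM in footprints, nearly all of it from Cd68, while Ptprc and Adgre1 were at 0 in every RNA library and Cd3e in every footprint library. The 6 fibroblast markers summed to 13.1 to 24.4 CPM in shControl RNA and 21.8 to 43.1 CPM in shElp3 RNA with Dcn at 0 throughout, and the 6 epithelial markers to at most 1.38 CPM. The part of the melanocytic and fibroblast levels in the results was not tested.

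All 14 core and 17 regulatory genes passed the filter on low counts in both fractions. Psma8 and Psme2b did not pass in any comparison, with 0 to 2 reads per library. Psmb11 passed in total RNA only, at 1.64, 2.29 and 0.83 CPM in shControl. Hence 45 of the 47 genes were tested in total RNA and 44 in footprints and in the comparisons that combine the fractions.

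The libraries lettered A stood apart in the total RNA of the subunits, and this comes before the comparison of shRNAs because it touches each of them. The 14 core genes summed to 3559, 1579 and 1502 CPM in shControl RNA A, B and C and to 2978, 1666 and 1505 CPM in shElp3 RNA. Letter A was the highest in both shRNA groups, and the groups overlapped. In shControl the core genes were higher in A than in the mean of B and C by a median of 1.28 on the log2 scale, with 14 of 14 above 0 (0.51 to 1.53), while the median of all genes was 0.01. In shElp3 the median was smaller, 0.93, again with 14 of 14 above 0. The regulatory genes showed the same order with a smaller gap, a median of 0.61 in shControl and 0.59 in shElp3, with 16 of 17 above 0 in each.

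Footprints showed no such gap in shControl and a small one in shElp3. The core genes summed to 3670.4, 3471 and 3451 CPM in shControl footprints A, B and C and to 4103, 3773 and 3502 CPM in shElp3. The regulatory genes summed to 4488, 4579 and 4664 CPM and 4921, 4587 and 4445 CPM, after 4644, 2598 and 2499 CPM and 3663, 2544 and 2249 CPM in RNA. In footprints the sums of the 3 libraries of a group lay close together for both particles, and letter A differed from B and C by a median of -0.03 (core) and -0.10 (regulatory) in shControl and 0.15 and 0.12 in shElp3. Above 0 were 6 of 14 core and 6 of 17 regulatory genes in shControl, beside 50.1% of all genes. In shElp3 13 of 14 and 15 of 17 were above 0, beside 51.4% of all genes. The labels give the letter as a replicate and nothing more, and both shRNAs have each letter. Psmd6, a lid subunit, had 28.0, 119 and 115 CPM in shControl footprints, far lowest in A, and 84.6, 74.0 and 91.1 CPM in shElp3.

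**Figure D1:**
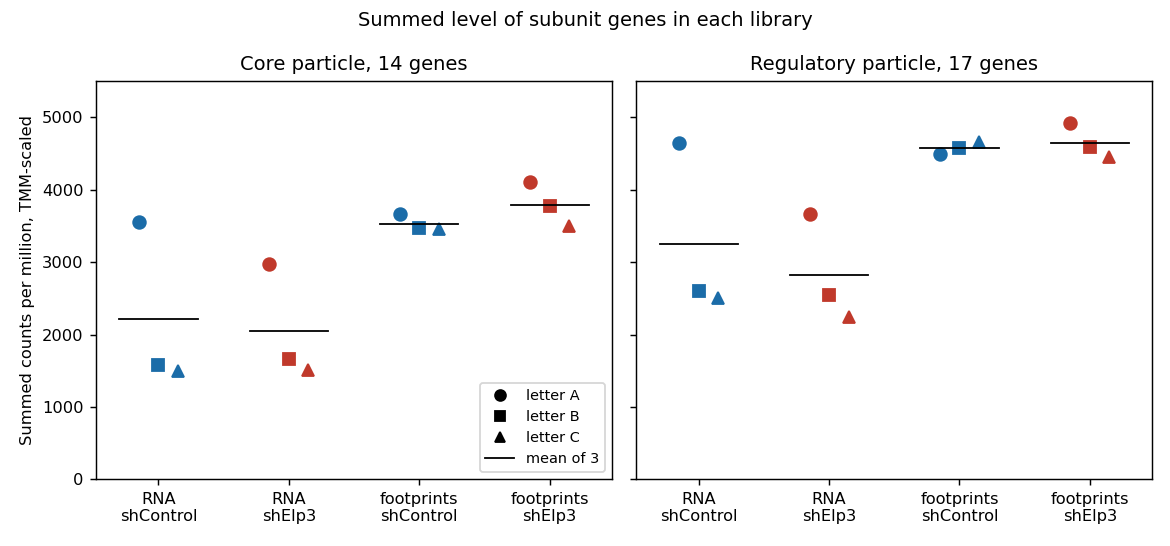
Summed level (CPM, TMM-scaled within each fraction) of the 14 core particle genes (left) and the 17 regulatory particle genes (right) in each of the 12 libraries, with the marker shape giving the letter and the line the mean of 3. In RNA the letter A libraries lie above B and C for both shRNAs, whereas the footprint sums stay between 3451 and 4103 CPM (core) and 4445 and 4921 CPM (regulatory).

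The balance between the particles was read as the ratio of the summed regulatory to the summed core level. It was 1.3, 1.65 and 1.66 in shControl RNA A, B and C and 1.23, 1.53 and 1.49 in shElp3 RNA. In footprints it was 1.22, 1.32 and 1.35 in shControl and 1.20, 1.22 and 1.27 in shElp3. Within each letter the ratio was lower in shElp3 in both fractions, but the groups overlapped in each, and letter A was the lowest of its group in all 4.

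The first comparison asked whether loss of Elp3 changed the abundance of proteasome mRNAs. No core and no regulatory gene was called in total RNA. A missing call does not show an unchanged level, since Elp3 itself was not called in total RNA by this test. Of the 45 genes tested 1 was called, Psmc3ip, which is not a subunit, while 1.14% of all 12274 genes were called (0.22% higher and 0.921% lower). With edgeR 0 core and 0 regulatory genes also passed an unadjusted p under 0.05, which 12.4% of all genes did, and DESeq2 called 0 of them and 5.31% of all genes. With letters B and C only Psmc3ip and Psmg4 were called, beside 19.4% of all genes. In a bulk library fewer cells with a transcript and less of it per cell cannot be told apart.

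The catalytic subunits show how little the shRNA groups were separated. Psmb5, the chymotrypsin-like subunit (GRCm38.p6, chr14:54614120-54617995), was at 109, 76.1 and 77.6 CPM in shControl RNA and 131, 79.7 and 77.2 CPM in shElp3, a log2 fold change of 0.13 with an SE of 0.29 (edgeR adjusted p = 0.929). Psmb6, the caspase-like subunit (chr11:70525324-70527858), was at 246, 107 and 111 CPM and 222, 121 and 105 CPM, a change of -0.05 with an SE of 0.43 (edgeR adjusted p = 0.986). Both sets of values overlapped, and the difference between letters was larger than that between shRNAs. Psmb7, the trypsin-like subunit (chr2:38588046-38643952), was at 289, 122 and 107 CPM and 234, 119.5 and 114 CPM, a change of -0.15 with an SE of 0.47 (edgeR adjusted p = 0.955).

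The core median was -0.06 and the regulatory median -0.17 on the log2 scale, beside -0.02 over all genes. The rings and subunit classes differed in their medians without any call. The α ring had a median of -0.41 with 6 of 7 genes below 0, and the β ring 0.08 with 4 of 7 above 0. The ATPases had 0.18 with 5 of 6 above 0, and the non-ATPases -0.42 with 9 of 11 below 0. Of all genes 48.1% were above 0. Within letters A, B and C the α ring median was -0.57, -0.23 and -0.06 and the non-ATPase median -0.56, -0.11 and -0.20, so that letter A gave the largest difference in both. The β ring median was -0.09, 0.18 and 0.07 and the ATPase median 0.24, 0.26 and -0.14, so that neither kept its sign in all 3 letters.

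Among core genes with a mean of at least 50 CPM the largest differences were those of Psma3 and Psma5, both of the α ring. Psma3 was at 359, 147 and 120.0 CPM in shControl and 221, 118 and 105 CPM in shElp3, a log2 fold change of -0.49 with an SE of 0.49 (edgeR adjusted p = 0.789). Psma5 was at 184, 76.2 and 60.4 CPM and 109.9, 53.4 and 68.8 CPM, a change of -0.47 with an SE of 0.47 (edgeR adjusted p = 0.798). In both, shControl A was the highest library, and without it the differences were 0.15 and 0.18, of the opposite sign. The same held for the lid subunit Psmd8, at 1187, 369 and 326 CPM and 645, 306 and 249.99 CPM, whose change of -0.65 with an SE of 0.59 (edgeR adjusted p = 0.763) became 0.20. Psmd1, the large scaffold subunit of the regulatory particle, had 247, 194 and 150.4 CPM and 159, 128 and 138 CPM, a change of -0.48 with an SE of 0.25 (edgeR adjusted p = 0.527).

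Outside the particles, the activator Psme4 was the only gene with every shElp3 RNA library above every shControl one, at 135, 131 and 117 CPM and 188, 157 and 168 CPM. Its change of 0.42 with an SE of 0.20 (edgeR adjusted p = 0.463) did not pass the threshold. Psmc3ip and the activator Psme1 were the 2 genes with all shElp3 libraries below, beside 10.2% (above) and 9.56% (below) of all genes. The assembly chaperone Psmg4 had 26.4, 12.7 and 16.8 CPM and 41.0, 21.9 and 25.2 CPM, higher in shElp3 within every letter although the groups overlapped. Its change of 0.66 with an SE of 0.36 (edgeR adjusted p = 0.555) passed with the letter as a block (0.66, adjusted p = 0.0339), a fit in which 12.2% of all genes were called.

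Psmc3ip (HOP2), which works in meiotic recombination, had 15.2, 18.6 and 16.6 CPM in shControl RNA and 6.06, 5.94 and 6.78 CPM in shElp3. It fell by 1.42 ± 0.23 on the log2 scale (SE; edgeR adjusted p = 0.0398), with no overlap between groups. With the letter as a block the edgeR adjusted p was 0.0011. It was not called with upper quartile scaling (0.0518), nor when shControl B or C or any shElp3 library was left out, fits in which edgeR called 0 genes of any kind. Its footprints were at 6.72, 24.0 and 25.1 CPM and 6.78, 6.90 and 9.33 CPM, where shControl A lay with the shElp3 libraries, and the change of -1.29 with an SE of 0.45 (edgeR adjusted p = 0.142) was not called.

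**Figure D2:**
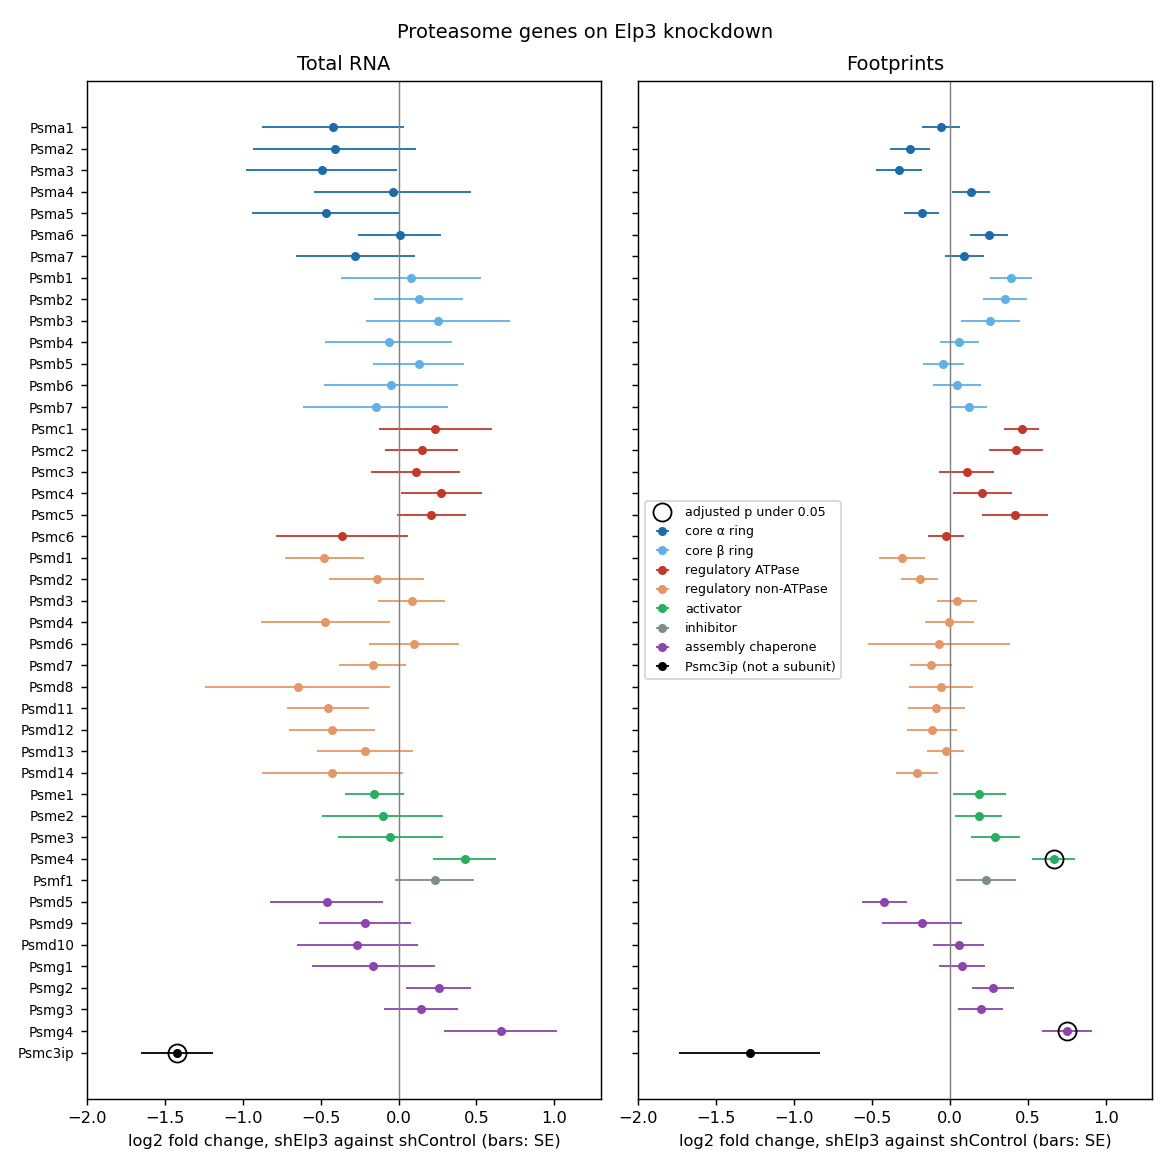
Log2 fold change (shElp3 against shControl) of the 44 genes tested in both fractions, in total RNA (left) and footprints (right), with bars for the SE over 3 libraries per group and a ring around genes with an edgeR adjusted p under 0.05. Ringed are Psmc3ip in RNA, and Psme4 and Psmg4 in footprints, and no core or regulatory gene.

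The second comparison asked the same of the mRNA engaged by ribosomes. Psme4 and Psmg4 rose in footprints, and no core or regulatory gene passed the test. These were 2 of 44 genes tested, a share near the background, since 4.83% of all 11343 genes were called (1.77% higher, 3.06% lower). With edgeR 2 core genes (Psmb1 and Psmb2) and 2 regulatory genes (Psmc1 and Psmc2) had an unadjusted p under 0.05, a mark that 23.1% of all genes passed. DESeq2 called Psmc1 beside Psme4 and Psmg4, and 11.5% of all genes. With upper quartile scaling the same 3 were called by edgeR, Psmc1 at 0.54 (adjusted p = 0.0422), and 4.82% of all genes. With letters B and C only 6 were called, Psmb1, Psmc1, Psme4 and Psmg4 higher and Psmc3ip and Psmd6 lower, beside 21.7% of all genes.

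Psme4 encodes a large activator that caps the core particle without ATP and is known for work in the nucleus (chr11:30771775-30881150). Its footprints were 117, 116 and 104 CPM in shControl A, B and C and 169.6, 202 and 163 CPM in shElp3. Every shElp3 library lay above every shControl one, and the mean CPM (± SD, n = 3) was 112 ± 7.23 in shControl and 178 ± 20.6 in shElp3. The log2 fold change was 0.67 with an SE of 0.14 (edgeR adjusted p = 0.0394). Within letters A, B and C the difference was 0.53, 0.80 and 0.65, and with the letter as a block it was called (edgeR adjusted p = 0.0436), as were 5.87% of all genes. It was not called when shControl B or C or any shElp3 library was left out, fits in which edgeR called 0 to 59 genes of all.

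Psmg4 encodes a chaperone that, with Psmg3, helps build the α ring (chr13:34162964-34178172). Its footprints were 12.3, 15 and 14.5 CPM in shControl and 23.6, 24.2 and 22.7 CPM in shElp3, again without overlap. The mean CPM (± SD, n = 3) was 13.9 ± 1.42 in shControl and 23.5 ± 0.737 in shElp3, and the log2 fold change was 0.75 with an SE of 0.16 (edgeR adjusted p = 0.0415). Within letters it was 0.91, 0.67 and 0.63, and the call was lost with the letter as a block (edgeR adjusted p = 0.0604), without the filter on low counts (0.0517) and without the same 5 libraries in turn. The other assembly chaperones were not called. The largest of them in footprints was that of Psmd5, which assists the ATPase ring, with 84.7, 74.3 and 78.3 CPM and 52.6, 66.1 and 58.4 CPM and a change of -0.42 with an SE of 0.14 (edgeR adjusted p = 0.132). All 4 activators tested were above 0, of which only Psme4 passed.

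In the core particle the footprints of the catalytic subunits overlapped between groups or differed little. Psmb5 was at 120.2, 129.7 and 126 CPM and 134, 123 and 108 CPM, a log2 fold change of -0.04 with an SE of 0.13 (edgeR adjusted p = 0.869). Psmb6 was at 185, 149 and 157 CPM and 196, 157 and 153 CPM, a change of 0.04 with an SE of 0.15 (edgeR adjusted p = 0.89). Psmb7, at 218, 226 and 219 CPM and 259, 229.6 and 232 CPM, did not overlap, and its change was 0.12 with an SE of 0.12 (edgeR adjusted p = 0.579). The largest SE of these 3 was 0.15 on the log2 scale in footprints and 0.47 in RNA, so that footprints set the narrower limit on a change of the catalytic subunits. The largest core differences were those of the β subunits Psmb1 (554, 458 and 466 CPM and 702, 606 and 635 CPM, a change of 0.39 (edgeR adjusted p = 0.132)) and Psmb2 (156, 149 and 154 CPM and 199, 219.9 and 166 CPM, 0.35 (edgeR adjusted p = 0.18)). Neither overlapped between groups and neither passed.

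In the regulatory particle the ATPases and the non-ATPases had medians on either side of 0, at 0.31 and -0.09, with 5 of 6 ATPases above and 10 of 11 non-ATPases below. All genes had a median of -0.01 and 49.1% above 0. Psmc1, whose tail docks in the α ring, had 387, 390.4 and 416 CPM in shControl and 559, 536 and 545 CPM in shElp3, with no overlap and a log2 fold change of 0.46 with an SE of 0.11 (edgeR adjusted p = 0.0615), just over the threshold. Psmc2 had 157, 218 and 239 CPM and 296, 271 and 258 CPM, a change of 0.42 with an SE of 0.17 (edgeR adjusted p = 0.195). Here shControl A was the lowest library, as it was for Psmc5 (133, 228 and 230.0 CPM in shControl and 270.2, 248 and 271 CPM in shElp3, 0.42 (edgeR adjusted p = 0.285)). Taken by letter, the ATPase median was 0.71 in A, 0.06 in B and 0.07 in C, so that most of the group's difference lay in letter A.

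Over the 44 genes 11 had all shElp3 footprint libraries above shControl (Psma6, Psmb1, Psmb2, Psmb7, Psmc1, Psmc2, Psmc5, Psme3, Psme4, Psmg2 and Psmg4) and 5 all below (Psma2, Psma3, Psma5, Psmd2 and Psmd5). Of all genes 15.4% lay above and 15.3% below in this way. The core median was 0.08 and the regulatory median -0.03, and the β ring stood at 0.12 and the α ring at -0.06.

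**Figure D3:**
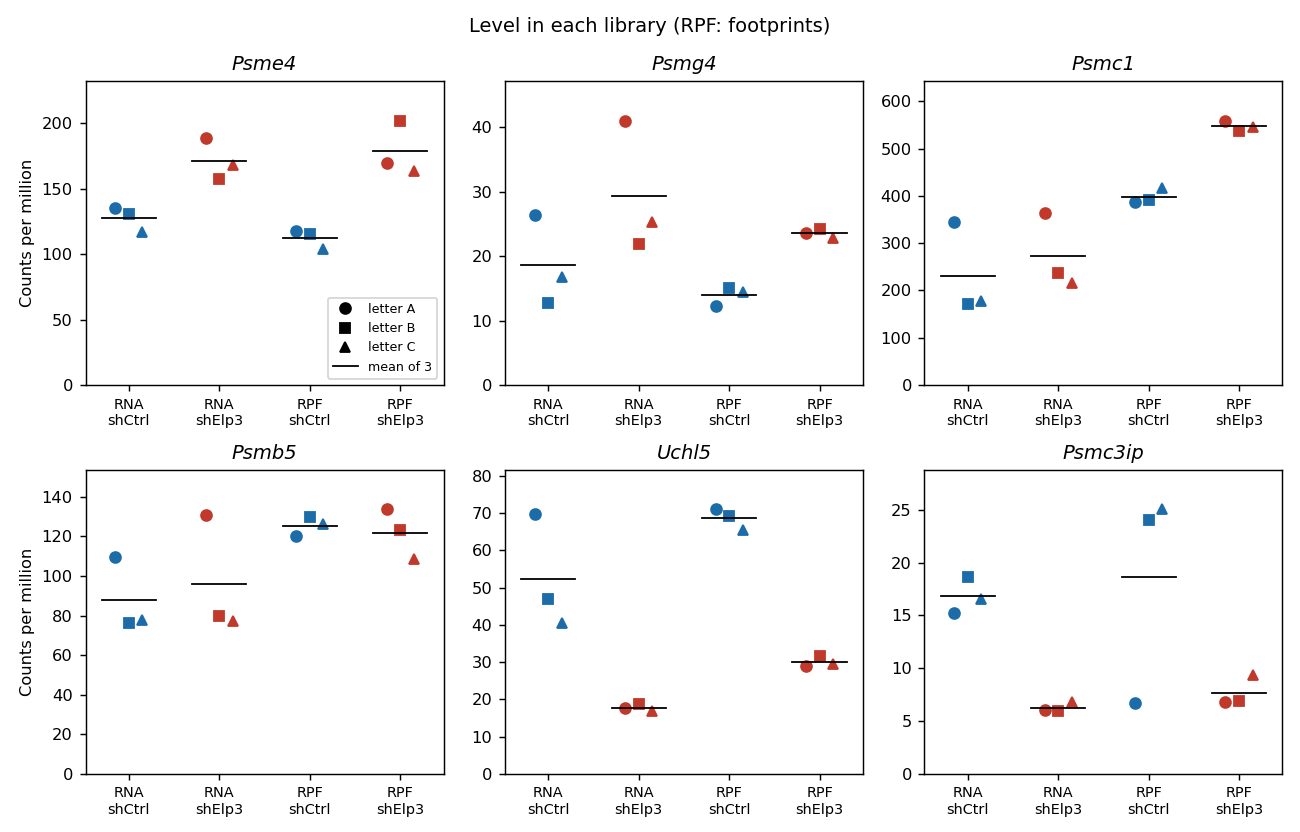
Level (CPM) of 6 genes in each library, with the letter as the marker shape and the mean of 3 as a line; each panel has its own scale from 0. Psme4 and Psmg4 footprints (RPF) are higher in all shElp3 libraries, Psmc1 footprints likewise, Psmb5 overlaps in both fractions, Uchl5 is lower in shElp3 in both, and Psmc3ip footprints of shControl A lie with shElp3.

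Genes that work with the proteasome were taken from a list of 35 names, of which 31 were in the table and all 31 were tested. In total RNA 1 was called lower and in footprints the same 1, Uchl5, and 0 were called higher in either. Of all genes 0.921% were called lower in RNA and 3.06% in footprints, so that 1 of 31 in footprints was a share near the background. An unadjusted p under 0.05 was reached by 1 partner in RNA and 6 in footprints, beside 12.4% and 23.1% of all genes. DESeq2 called 0 partners higher and 1 lower in RNA, beside 1.88% and 3.43% of all genes. In footprints it called 1 higher and 2 lower, beside 4.65% and 6.88% of all genes. Uchl5 encodes a deubiquitinase that docks on the regulatory particle and trims ubiquitin from the substrate. Its RNA was 69.7, 47.0 and 40.4 CPM in shControl and 17.7, 18.7 and 17 CPM in shElp3, a log2 fold change of -1.56 with an SE of 0.27 (edgeR adjusted p = 0.0455). Its footprints were 71.0, 69.4 and 65.6 CPM and 28.9, 31.5 and 29.6 CPM, a change of -1.19 with an SE of 0.13 (edgeR adjusted p = 0.0124). The groups were far apart in both fractions, and the call was kept with the letter as a block (edgeR adjusted p = 0.000146 in RNA and 0.00457 in footprints). It was lost in RNA with upper quartile scaling (0.0555) and without each library but shControl A, and in footprints without each of the shElp3 libraries (0.0724 to 0.100).

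With the letter as a block 5 of the 31 partners were called lower in RNA, and 6.75% of all genes. Beside Uchl5 they included the deubiquitinase Usp14 (adjusted p = 0.0406), the thioredoxin-like Txnl1 (0.0159) and AI314180, which encodes a proteasome adaptor (0.047). Without the block the log2 fold changes of these 3 were -0.63, -0.85 and -0.60, none called. Nfe2l1, the transcription factor of the subunit genes, had 1074, 722 and 982 CPM in shControl RNA and 1274, 1544 and 1502 CPM in shElp3. All shElp3 values lay above, with a change of 0.64 with an SE of 0.27 (edgeR adjusted p = 0.409) that did not pass. In its footprints the groups overlapped (956, 483 and 594 CPM and 809, 785 and 769.5 CPM, 0.22 (edgeR adjusted p = 0.631)). The immunoproteasome subunits, which replace the catalytic β subunits after interferon, summed to 20.3, 12.4 and 12.3 CPM in shControl RNA and 21.5, 14.4 and 15.9 CPM in shElp3 RNA. Psmb5, Psmb6 and Psmb7 summed to 645, 305 and 295 CPM in the same shControl libraries. Of the 3, Psmb8 was too low to test and Psmb9 and Psmb10 were not called in either fraction.

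The third comparison asked whether footprints changed relative to RNA (translational efficiency), as the interaction of fraction and shRNA over the 12 libraries. No proteasome gene was called, and 0% of all 11238 genes were called by edgeR, with or without a block, or by DESeq2. A fit that called no gene cannot show that the proteasome genes were unchanged. Letters B and C alone gave 0 of the 44 and 0.0177% of all genes. At an unadjusted p under 0.05 there were 0 of the 44 proteasome genes and 62 genes in all (0.552%). The medians were 0.15 (core) and 0.16 (regulatory), beside -0.03 over all genes, and 32 of 44 proteasome genes were above 0 against 45.8% of all genes.

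In the core and regulatory particles that shift was largest in letter A. Within letters A, B and C the core median was 0.35, -0.03 and -0.03 and the regulatory median 0.39, -0.10 and 0.08. The activators had medians of 0.39, 0.26 and 0.17 and the assembly chaperones 0.07, -0.03 and 0.04. The log2 ratio of footprints to RNA (CPM + 0.5, TMM over all 12 libraries) of Psmd8 was -0.29, 0.82 and 1.19 in shControl A, B and C and 0.43, 1.31 and 1.16 in shElp3. That of Psmd4, a ubiquitin receptor, was -0.92, 0.32 and 0.40 and -0.02, 0.38 and 0.54. In both genes shControl A was the lowest culture. These were the largest regulatory differences, at 0.54 and 0.42 (edgeR adjusted p = 1.00 in both), and Psma7 and Psma1 the largest of the core, at 0.32 and 0.31 (1.00 in both). Without the shControl A culture all 4 took the opposite sign, at -0.14, -0.12, -0.13 and -0.30. Psmd11, a lid subunit, was the 1 gene of the 44 with all shElp3 cultures above shControl, and 0 lay below, beside 2.23% and 4.84% of all genes.

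The fourth comparison set footprints against RNA within shControl, to describe how ribosomes load on proteasome mRNAs relative to the typical gene. Of the 44 genes 9 carried more footprints per RNA read than the typical gene and 0 fewer, while 21.4% of all genes were called (7.87% higher and 13.5% lower). They were the core genes Psma6, Psmb2 and Psmb3, the regulatory genes Psmc2, Psmd1, Psmd7 and Psmd12, the activator Psme1 and the chaperone Psmg2. The median log2 difference was 0.77 in the core and 0.78 in the regulatory particle, beside -0.04 over all genes, with 13 of 14 and 16 of 17 above 0, as were 48.2% of all genes. In 25 of 44 genes all shControl footprint values lay above all RNA values and in 0 below, beside 19.9% and 23.4% of all genes.

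The highest was Psma6, an α subunit, with 112, 69.9 and 72.3 CPM in RNA and 245, 289.7 and 288 CPM in footprints and a log2 difference of 1.82 with an SE of 0.27 (edgeR adjusted p = 0.00591). Psmb2, a β subunit, had 66.0, 40.1 and 42.1 CPM and 156, 149 and 154 CPM, a difference of 1.76 with an SE of 0.27 (edgeR adjusted p = 0.00606). Psmb3, also of the β ring, had 297, 119 and 125 CPM and 504, 352 and 407 CPM, and 1.35 with an SE of 0.40 (edgeR adjusted p = 0.0468). In all 3 every footprint library lay above every RNA library, on levels scaled within each fraction. At the other end Psmg4 had -0.28, Psmd4 -0.18 and Psma7 -0.06, none called, with adjusted p of 0.551, 0.74 and 0.913 from edgeR.

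The size of the difference varied with the letter. By culture the core median of the log2 ratio was 0.25 in shControl A, 1.24 in B and 1.37 in C, and the regulatory median 0.32, 0.93 and 1.11. The shElp3 cultures had the same order, with 0.46, 1.31 and 1.34 in the core and 0.65, 0.92 and 1.14 in the regulatory particle. All 6 medians of each particle were above 0, while those of all genes lay between -0.07 and -0.01. With letters B and C only, 41 of 44 genes were called higher, including all 14 core and 17 regulatory genes, against 33.1% of all genes. With the culture as a block 20 were called higher (14.5% of all genes), and with DESeq2 18 (13.7% of all genes). Without shControl B or without shControl C 0 were called, fits in which only 0.0351% and 0.131% of all genes were called higher.

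The genes at the ends of the core order were nearly the same over the cultures. Psma6 had the highest ratio of the core in shControl B and C and in shElp3 A and C, and Psmb2 in shControl A and shElp3 B. Psma7 had the lowest in 5 of the 6 cultures, and Psmb6 in shElp3 A. The ratio of Psma6 was 1.29, 2.18 and 2.1 in shControl A, B and C and 1.81, 2.1 and 2.20 in shElp3, and that of Psma7 -0.68, 0.36 and 0.42 and -0.05, 0.42 and 0.57. Psmb5 lay between these 2 in all 6 cultures, at 0.31, 0.90 and 0.82 in shControl and 0.14, 0.69 and 0.58 in shElp3. In the regulatory particle Psmd12, a lid subunit, had the highest ratio in both B and both C cultures, but Psmd7 in shControl A and Psmd11 in shElp3 A. The lowest was Psmd4 in all 3 shControl cultures and Psmd2 in all 3 of shElp3. These genes were ordered on the values shown, and the order is a description without a test.

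**Figure D4:**
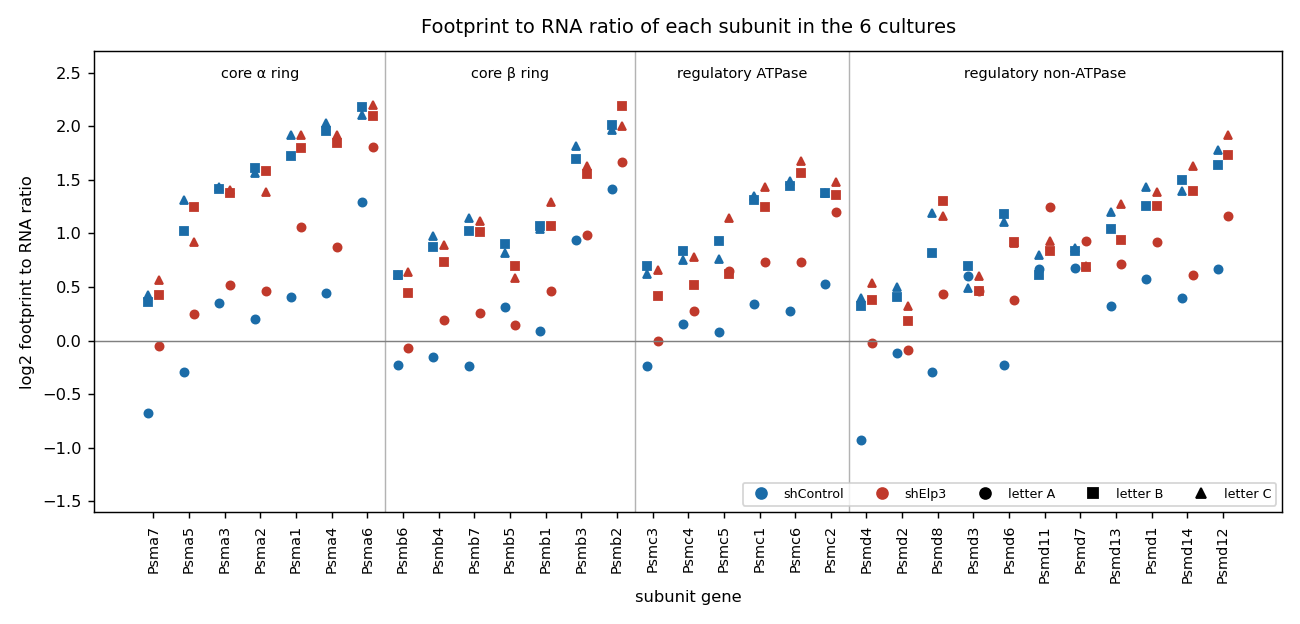
Log2 ratio of footprint to RNA level (CPM + 0.5, TMM over 12 libraries) of each core and regulatory gene in the 6 cultures, with colour for the shRNA and shape for the letter. Genes are ordered within each class by the mean over the shControl cultures. Letter A (circles) lies lowest for most genes, and the cultures of both shRNAs overlap, with Psma6 and Psmb2 at the top and Psma7 and Psmd4 at the bottom.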

How the data were processed

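The authors deposited raw read counts by gene symbol, with no scaling, for total RNA and ribosome-protected fragments prepared by the TruSeq Ribo Profile protocol (per the labels), 12 libraries in all. The submitters' processing notes name bcl2fastq, TopHat2 2.1.1, Bowtie, HTSeq and build mm10. Not given in the sources used here are the strand setting, the annotation and whether footprints were counted over coding sequence, so overlapping and antisense genes may share reads. RNA reads also cover untranslated regions, so a footprint to RNA ratio compared between genes depends on their share of coding sequence.

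Genes were kept with filterByExpr (minimum count 10), scaled by TMM and tested by the quasi-likelihood F test of edgeR 4.0.16 under R 4.3.3, Benjamini-Hochberg adjusted over all genes, threshold 0.05. RNA and footprints were fitted on 6 libraries each, translational efficiency as the interaction over 12, and footprints against RNA on the 6 shControl libraries. CPM is scaled within each fraction. The SE is the log2 fold change over the root of its F statistic. The code was tested on simulated data. Alternatives were other scalings, DESeq2 1.42.0, no filter on low counts, a replicate block, letters B and C only, each library left out, and the 20 most abundant genes left out.

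Pairing by letter was checked by correlating deviations from group means across genes. For A, B and C same-letter r was 0.82, 0.45 and 0.60 in RNA and 0.34, -0.11 and 0.22 in footprints. Blocked values are therefore given for genes named with a call in RNA, and also in footprints for Psme4, Psmg4 and Uchl5. The correlation of letters B and C with each other across shRNAs was as high in RNA (0.71 and 0.60). In footprints it was 0.39 for shControl B with shElp3 C and -0.03 for shControl C with shElp3 B. Same-letter pairing of B and of C therefore did not stand out in either fraction.

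Members and lists were chosen with earlier results of these data known. Named with values in each library were Psmb5, Psmb6 and Psmb7, every called gene, the 2 core and 2 regulatory genes of largest change with a mean of at least 50 CPM, the 3 highest and 3 lowest ratios, called partners, Nfe2l1 and Elp3. Psmd6, Psmd5, Psmc5, Psmd11, Psme1 and other blocked or non-overlapping genes were named after their values were seen. Symbols of all 47 genes matched a RefSeq table (GRCm38.p6). Protein and coding sequences were not used here, so codon and residue content was not analysed.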

Additional observations from a re-analysis of the deposited data

How the results depend on the processing

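Psma8 and Psme2b had 0 to 2 reads per library and were not tested with the filter on low counts. Without that filter neither was called in any comparison where it had reads. No setting called a core or regulatory gene in RNA or translational efficiency. The count of genes called in RNA was 1 and became 0 with upper quartile scaling, 2 with the replicate block (letter), 2 with letters B and C only and 0 to 1 when a library was left out. In footprints it was 2 and became 3 with upper quartile scaling and with DESeq2 (Psmc1 also higher in both). It was 1 without the filter on low counts and 1 with the replicate block. From letters B and C alone it was 6 (Psmb1, Psmc1, Psme4 and Psmg4 higher, Psmc3ip and Psmd6 lower), and it was 0 to 7 when a library was left out. The 7 were called without shControl A (4 higher and 3 lower, with Psmd1 among the lower), beside 10.7% of all genes higher and 14% lower. For shControl footprints against RNA the count was 9 and became 18 with DESeq2 and 20 with the culture as replicate block. It was 41 with letters B and C alone, which here are the same libraries as without shControl A. Without shControl B or C it was 0, where 0.0351% and 0.131% of all genes were called higher. Without the filter on low counts Psma1 and Psma4 were also called higher. Psmb11, with 0 to 2 reads in shControl footprints, was then called lower (-3.57, edgeR adjusted p = 0.0158). In translational efficiency the count was 0 throughout. When a library or culture was left out, the RNA median ranged from -0.50 to 0.36 in the core and -0.33 to 0.13 in the regulatory particle, and the translational efficiency median from -0.38 to 0.58 and -0.16 to 0.32. Some changes near 0 took the other sign. With upper quartile scaling Psmb6 in RNA was 0.032 and Psmb5 in footprints 0.035. On letters B and C alone, RNA was 0.053 for Psmb6 and 0.028 for Psmb7, and footprints against RNA 0.12 for Psmg4, 0.36 for Psmd4 and 0.39 for Psma7, which was 0.021 without the filter on low counts and 0.029 with the culture as replicate block. When a library was left out, RNA ranged from -0.91 to 0.15 for Psma3, -0.81 to 0.18 for Psma5, -0.16 to 0.32 for Psmb5, -0.45 to 0.46 for Psmb6, -0.57 to 0.45 for Psmb7 and -1.18 to 0.20 for Psmd8, and footprints from -0.12 to 0.033 for Psmb5 and -0.077 to 0.13 for Psmb6. When a culture was left out, translational efficiency ranged from -0.30 to 0.71 for Psma1, -0.13 to 0.61 for Psma7, -0.12 to 0.69 for Psmd4 and -0.14 to 0.98 for Psmd8, and footprints against RNA from -0.27 to 0.40 for Psma7, -0.44 to 0.37 for Psmd4 and -0.55 to 0.13 for Psmg4. The Elp3 footprint call was lost when any library other than shControl A was left out (edgeR adjusted p = 0.0694 to 0.136). The cause of these shifts was not tested.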
